A study of Mus musculus with 6 samples.

Results

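The nuclear genome supplies most protein subunits of the mitochondrial respiratory chain, and their messenger RNAs were followed here in hepatic stellate cells of mice, wild type or Nbr1 knock-out. Members were taken by symbol, as every row of the deposited table named for a Nduf subunit of groups a, b, c, s or v, for Sdha to Sdhd, for a Uqcr subunit, Cyc1 or Cycs, for a Cox subunit numbered from 4 to 8, or for an Atp5 subunit. This gave 83 of the 13341 rows: 39 of complex I, 4 of complex II, 9 of complex III, cytochrome c itself, 13 of complex IV and 17 of complex V. The rule reads symbols alone. The libraries fall into 2 groups of 3. One is labelled wild type and the other Nbr1 knock-out, Nbr1 encoding an autophagy cargo receptor. All were stellate cells from mouse liver grown for 4 days in DMEM with 10% fetal bovine serum, glutamine and antibiotics and left without further treatment. The design text calls the replicates biological. The labels do not name the strain, age or sex of the mice, the type of Nbr1 allele or whether each culture came from its own animal, so p-values measure only the spread between these libraries.

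The respiratory chain passes electrons from NADH through complex I, or from succinate through complex II, to ubiquinone, then through complex III and cytochrome c to complex IV, which reduces oxygen. Protons pumped on the way drive complex V, the ATP synthase. Complexes I, III, IV and V also hold core subunits encoded by mitochondrial DNA, while complex II is wholly nuclear. Stellate cells store retinoids in the liver and become collagen-producing myofibroblasts when activated.

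Recovered reads ranged from 1508518 to 2383879 a library, and the members took 1.96% to 2.05% of them. The values are transcript-end counts divided by the authors' size factor, called normalized counts below. Nbr1 itself stood at 204.1, 278.0 and 288.7 normalized counts in wild-type libraries 1 to 3 and at 203.7, 188.2 and 175.6 in knock-out libraries 1 to 3 (limma adjusted p = 0.22). End reads cannot show a deletion elsewhere in the gene, so this does not check the labels. Sqstm1, for the related receptor p62, had 24.0, 10.9 and 12.7 normalized counts under the wild-type label against 817.4, 644.6 and 859.1 under the knock-out label (log2 change 5.59, limma adjusted p = 0.000337). Every direction below rests on the labels. Of 15 stellate cell markers, 10 were measured, and 7 of the 9 tested were called higher in the knock-out label. Marker calls are those of limma at an adjusted p under 0.05, which called 4.67% of all tested genes higher and 2.25% lower. The defining markers Des, Lrat and Reln were not analysed here. Summed hepatocyte markers lay between 15.5 and 54.5, macrophage markers between 12.6 and 27.5 and endothelial markers between 3.4 and 8.3 normalized counts in every library. Only 5 of 10, 3 of 10 and 1 of 8 genes of these lists were measured. Markers of cholangiocytes and other epithelia summed to 146.1 to 168.1 in the wild-type label and 603.3 to 666.9 in the knock-out label. Of the 4 tested, 2 were called higher and 1 lower. Mesothelial markers summed to 1550.3 to 1897.6 and 1140.6 to 1345.0, with 1 of 5 tested called lower. Portal fibroblast markers summed to 592.9 to 888.5 and 832.8 to 889.8, with 2 of 4 tested called higher. The part of such cells in the member values was not tested.

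One feature of the libraries precedes every result. Genotype means were subtracted, the remainders were clustered, and the tree was cut into 2 sets, a number imposed and not found. Within each genotype the remainders of a gene cancel out, so sets that cross the genotypes are favoured by the method itself. Set A holds wild-type library 1 beside 2 knock-out libraries, 1 and 3. Set B holds 2 wild-type libraries, 2 and 3, beside knock-out library 2. The labels name no batch behind these sets, and the sets were drawn from these same data. The 2 libraries of the same genotype within a set were much alike. They differed by a chi-square of 1.48 or 1.53 per degree of freedom, against 7.37 to 20.1 for other pairs within a genotype. Each group may thus hold fewer independent units than its 3 libraries. Fewer transcripts per cell and fewer cells of one type cannot be told apart in such bulk samples.

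Between the genotype labels, no member of the respiratory chain passed the test. A gene entered the test if 3 or more libraries reached 10 normalized counts. Of the members 80 did so, and 0 rose and 0 fell in the knock-out label (limma with a variance trend on log2(normalized count + 1), Benjamini-Hochberg adjustment over all 10540 tested genes at 0.05). Over all tested genes 6.92% passed, 4.67% higher and 2.25% lower. On the recovered reads edgeR also called 0 members in either direction, against 7.27% of all genes (5.0% higher, 2.27% lower), and DESeq2 0 against 9.02% (5.74% higher, 3.28% lower). An unadjusted p under 0.05 was given to 5 members by edgeR, against 22.6% of all genes, and to 6 by DESeq2, against 19.6%. With the GC trend of each library removed, chosen after seeing the data, limma called 0 members against 6.89% of genes (4.55% higher, 2.34% lower). That fit held only the 9929 genes, 76 of them members, with an annotated transcript end, and Atp5md and Ndufb1 were among those left out. With the replicate number as a block limma called 0 of the 80 members against 4.52% of genes (3.31% higher, 1.2% lower). In the limma fit an unadjusted p under 0.05 was found for 5 members, 6.25% of those tested, against 22.6% of all genes. The median log2 change of the tested members was -0.02, and that of all tested genes was -0.01. The middle range between quartiles ran from -0.22 to 0.26 for the members and from -0.32 to 0.33 for all genes. For 62 members the 95% interval of the change lay inside a 2-fold difference either way, 77.5% of those tested against 50.5% of all tested genes. A member missing the threshold is not shown to be equal in the groups, and the intervals give what each measurement allows.

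**Figure D1:**
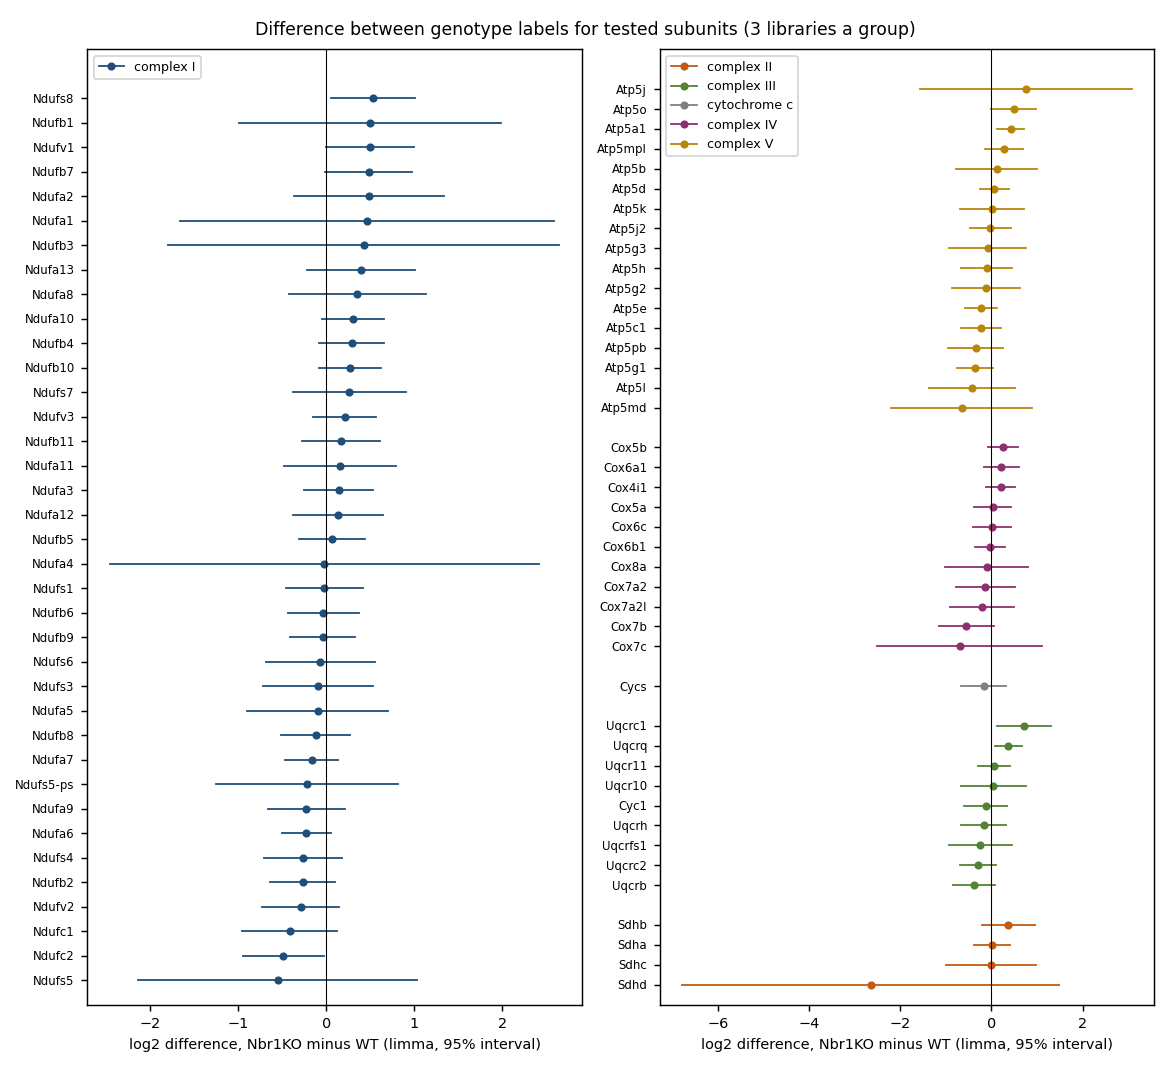
Each point is the log2 difference of 1 tested subunit, knock-out label minus wild-type label, on the log2(normalized count + 1) scale, and each line is its 95% interval from limma (3 libraries a group), coloured by complex. Of the 80 tested members 1 is not shown. Most intervals cross 0. The widest belongs to Sdhd, from -6.79 to 1.49.

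The groups did not overlap for 12 members, 15.0% of those tested, where 30.1% of all tested genes showed this. In 8 of the 12 the knock-out label was the higher (16.5% of all genes were higher in this way), and in 4 it was the lower (13.6% of all genes).

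Complex I is the largest complex of the chain and takes electrons from NADH. Of its 38 tested members, 20 had a positive and 18 a negative log2 change, with a median of 0.10. The 2 smallest p-values were those of Ndufs8 and Ndufc2. Ndufs8, an iron-sulfur subunit of the electron path, stood at 237.5, 171.3 and 161.6 normalized counts in wild-type libraries 1 to 3 and at 278.8, 232.1 and 307.3 in knock-out libraries 1 to 3. Wild-type library 1 reached above knock-out library 2, so the groups overlapped. The means were 190.1 ± 41.3 and 272.7 ± 38.0 (SD, n = 3 each), with a log2 change of 0.53 (SE 0.20, limma adjusted p = 0.18). Ndufc2, an accessory subunit of the membrane arm, went the other way, with 329.5, 502.2 and 503.9 against 300.5, 314.6 and 320.4. All 3 knock-out libraries lay below the wild-type ones, though wild-type library 1 was only just above them (log2 change -0.49, SE 0.19, limma adjusted p = 0.20). Ndufv1, which binds the FMN that accepts electrons from NADH, had 376.2, 246.1 and 247.9 against 431.8, 346.4 and 430.7, and again only wild-type library 1 overlapped the knock-out range (log2 change 0.49, limma adjusted p = 0.222).

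Other complex I members kept their groups apart with small differences. Ndufa10, Ndufb4 and Ndufb10, accessory subunits, were above the wild-type range in all 3 knock-out libraries, with log2 changes of 0.30, 0.29 and 0.27. Ndufa6 and Ndufa7 were below it, with log2 changes of -0.23 and -0.17. None of these passed the test. The most abundant complex I member was Ndufa2, at 1715.7, 775.1 and 697.3 against 1496.3, 1057.1 and 1593.6, its high libraries being those of set A. Ndufb4b was too low for the test, at 5.3, 2.5 and 4.5 against 3.6, 1.7 and 9.5. A pseudogene row, Ndufs5-ps, also met the naming rule, at 8.0 to 13.6 in the wild-type label and 4.5 to 11.9 in the knock-out label.

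Complex II, succinate dehydrogenase, also serves the citric acid cycle. Its flavoprotein gene Sdha had 524.3, 406.5 and 400.4 against 470.7, 389.3 and 477.0 normalized counts (log2 change 0.01, 95% interval -0.38 to 0.40). The iron-sulfur subunit gene Sdhb had 621.7, 366.2 and 385.9 against 630.9, 470.1 and 642.0 (log2 change 0.37, limma adjusted p = 0.437). Of the pair of membrane anchors, Sdhc had 130.7, 350.2 and 323.2 against 210.9, 349.8 and 200.5, with nearly equal group means of 268.1 ± 119.7 and 253.8 ± 83.3. Sdhd, the other anchor, had 5.3, 239.3 and 151.6 against 4.5, 77.4 and 1.2, and its interval was the widest of the tested members. Its group means were 132.1 ± 118.2 and 27.7 ± 43.0, a ratio of 0.21. The difference of its mean log2 values was -2.65 with an SE of 1.74 (limma adjusted p = 0.44), and -2.12 with a pseudocount of 5. Within set B the log2 change of Sdhd was -1.29. Within set A it was -0.87, on 4 reads in wild-type library 1 against 5 and 1 in knock-out libraries 1 and 3, too few to give a direction. All 4 complex II members kept sets A and B apart, Sdha and Sdhb higher in set A and Sdhc and Sdhd higher in set B. Sdhd entered the test through set B alone, so its split was fixed by the filter.

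Complex III hands electrons from ubiquinol to cytochrome c. Uqcrc1, a core protein facing the matrix, showed the largest positive change among members whose groups did not overlap. It had 256.2, 142.8 and 142.5 against 293.3, 270.7 and 290.7 normalized counts, which is 180.5 ± 65.5 against 284.9 ± 12.4, a 1.58-fold higher mean in the knock-out label. Its limma adjusted p was 0.15, for a log2 change of 0.71 (SE 0.25), and wild-type library 1 stood far above the other wild-type libraries. Uqcrq, a small membrane subunit, had 499.0, 447.6 and 468.5 against 609.2, 575.8 and 650.3, with no overlap and nearly the same log2 change in set A (0.33) and set B (0.33). Its overall log2 change was 0.37 (SE 0.12, limma adjusted p = 0.126). Uqcrc2, the partner of Uqcrc1 in the complex, had the opposite sign, at 272.2, 314.1 and 307.8 against 203.7, 281.9 and 245.6, with overlap (log2 change -0.30, limma adjusted p = 0.355). Cyc1, the cytochrome c1 gene, had 310.9, 236.0 and 205.2 against 256.2, 197.7 and 231.4, and its groups overlapped widely (log2 change -0.12). Uqcrh, which holds the hinge between cytochrome c1 and cytochrome c, was the most abundant complex III member, at 1272.8, 811.3 and 805.3 against 873.5, 735.7 and 907.7. Cycs, the mobile carrier cytochrome c, also known from apoptosis, was among the less abundant members, at 86.7, 85.7 and 91.7 against 82.4, 61.0 and 94.9 (log2 change -0.17, 95% interval -0.66 to 0.32).

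Complex IV, cytochrome c oxidase, was the only one of the 5 complexes whose summed level kept the genotype labels apart, and this rested on 2 abundant members. The 13 members together had 8688.0, 8736.5 and 8639.9 normalized counts against 8073.7, 7852.0 and 8071.3 in the knock-out libraries, a mean ratio of 0.92 with no overlap. As a share of all reads of the library the sums were 0.432%, 0.436% and 0.437% against 0.416%, 0.401% and 0.413%, also without overlap. Ndufa4, counted in complex I by its symbol but now placed in complex IV, brings the sums to 8737.4, 9479.7 and 9268.2 against 8320.8, 8356.5 and 8250.4, again apart. Without Cox7c, which followed the library sets and has near-identical copies elsewhere, the sums were 8450.5, 7472.6 and 7389.7 against 7680.8, 6906.6 and 7833.9, and the groups overlapped. Without Cox7a2 they also overlapped, at 6805.5, 7758.1 and 7565.8 against 6881.5, 6905.7 and 6739.9. Leaving out each of the 13 in turn, chosen after seeing the data, kept the groups apart in 11 cases. Cox6a2 and Cox7a1 are among these and were too low to change the outcome. The sum was set beside those of the other complexes after the values were seen, and it has no test. Complex I summed to 14677.0 ± 1344.8 against 14795.7 ± 771.4, complex II to 1301.8 ± 53.3 against 1308.1 ± 18.7, complex III to 3973.5 ± 576.9 against 3883.0 ± 187.6 and complex V to 11308.6 ± 1129.6 against 11236.7 ± 563.6, each with overlap. Sums of the most abundant members weigh most in these totals.

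**Figure D2:**
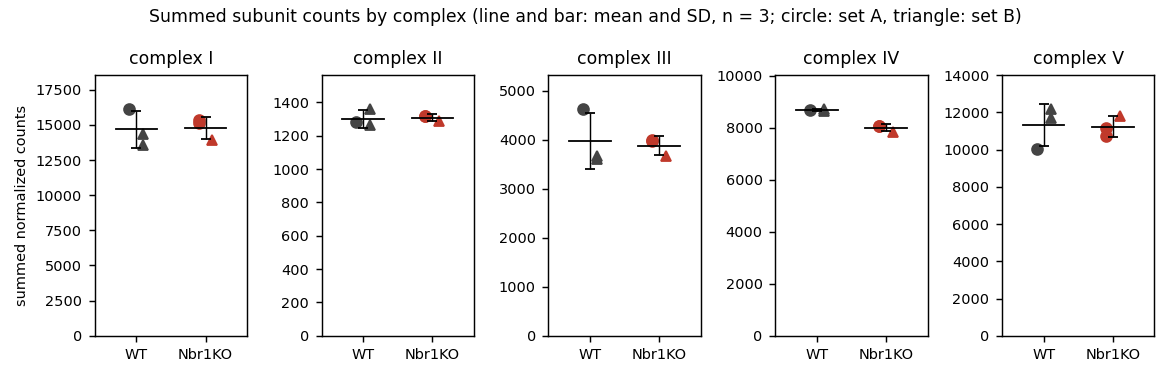
Each panel sums the normalized counts of 1 complex in each library (vertical axis from 0), with wild-type libraries in grey, knock-out libraries in red, circles for library set A, triangles for set B, and the mean and SD of 3 libraries as line and bar. Only complex IV has groups apart, at 8639.9 or more against 8073.7 or less.

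No single complex IV member passed. Of 11 tested, 5 had a positive and 6 a negative log2 change (median -0.03). Cox7b, a small accessory subunit, had 489.6, 893.6 and 826.2 against 487.9, 559.5 and 418.9 (log2 change -0.55, SE 0.25, limma adjusted p = 0.258), wild-type library 1 lying inside the knock-out range. Cox5b, which binds zinc, had 308.2, 326.7 and 380.4 against 401.9, 385.0 and 426.0, with no overlap and a small difference (log2 change 0.26, limma adjusted p = 0.329). Cox6c, the most abundant, had 1783.8, 1310.1 and 1339.2 against 1541.6, 1244.5 and 1652.9, so that its group means of 1477.7 ± 265.5 and 1479.7 ± 211.1 hardly differed. Cox4i1, the widely expressed form of subunit 4, had 832.5, 695.4 and 658.3 against 829.2, 793.3 and 881.6 (log2 change 0.20). Cox8a had 269.5, 676.0 and 777.2 against 487.0, 532.9 and 436.7, the knock-out libraries all falling between wild-type library 1 and the other wild-type ones. Cox6b1 was even across libraries, between 361.6 and 447.6 in the wild-type label and between 381.6 and 425.5 in the knock-out label.

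Some subunits have a heart and skeletal muscle form beside the widely expressed one. Cox6a1, the common form, had 1039.3, 806.2 and 758.1 against 1046.4, 895.6 and 1065.6 normalized counts, whereas the muscle form Cox6a2 had 1.3, 0.0 and 0.0 against 6.3, 1.7 and 7.1. Cox7a2, the common form of another pair, had 1882.5, 978.4 and 1074.1 against 1192.2, 946.3 and 1331.4, and the muscle form Cox7a1 had 8.0, 3.4 and 9.1 against 0.9, 4.3 and 3.6. Both muscle forms missed the minimum for testing, and the common forms made up nearly all of each pair in every library. Of 9 striated muscle markers only Tnnt2 was measured, at 12.6 to 22.7 normalized counts against 55.0 to 67.9 in the knock-out libraries, and its part in Cox6a2 was not tested. This kit counts transcript ends, so these values do not grow with transcript length. Cox7a2l, a relative that joins complexes III and IV into supercomplexes, had 937.9, 549.2 and 436.7 against 585.7, 425.4 and 577.9. It was highest in wild-type library 1, and its groups overlapped (log2 change -0.21).

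Complex V makes ATP from the proton gradient. Atp5a1, the alpha subunit of the catalytic head, had the smallest p of all members: 1034.0, 1190.0 and 1123.1 against 1496.3, 1640.7 and 1345.6 normalized counts. All 3 knock-out libraries were above all wild-type ones, with means of 1115.7 ± 78.3 and 1494.2 ± 147.6, a 1.34-fold higher mean. The log2 change was 0.42 (SE 0.13, limma adjusted p = 0.111), and it was 0.46 within set A and 0.51 within set B. Atp5b, the beta subunit that alternates with alpha in the head, had 659.1, 1725.0 and 1557.1 against 1234.7, 1609.8 and 1126.1 and followed the library sets, so its 95% interval ran from -0.77 to 0.99 around a log2 change of 0.11. Atp5o, in the stalk that holds the head, had 863.2, 556.8 and 607.4 against 1002.1, 770.9 and 1038.3 (log2 change 0.49, limma adjusted p = 0.232), with wild-type library 1 above knock-out library 2.

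The membrane ring of complex V is built of subunit c, for which Atp5g1, Atp5g2 and Atp5g3 each encode a copy. Atp5g3 was the most abundant member of the whole chain, at 823.2, 2018.9 and 2051.0 against 1424.8, 1615.8 and 1259.0. Atp5g1 was intermediate, at 378.9, 304.0 and 272.4 against 266.1, 228.6 and 244.4, its groups apart (log2 change -0.36, SE 0.17, limma adjusted p = 0.269). Atp5g2 was the least abundant, between 9.3 and 15.1 against between 9.5 and 13.6. The order Atp5g3 over Atp5g1 over Atp5g2 held in each of the 6 libraries. The end of Atp5g2 is nearly identical to 3 other annotated transcribed loci, which leaves the origin of its reads uncertain.

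Near-identical copies touch other members too. The last 300 bases of the longest annotated coding transcript were compared with all GENCODE M21 transcripts for 78 members. For 18 of them another locus matched over at least 75 bases, the read length, at 95% identity or more. Atp5l had 12 such loci and only 53.4, 25.2 and 22.7 against 29.9, 16.3 and 24.9 normalized counts. Ndufs5 had 1 such locus and 5.3, 11.8 and 14.5 against 3.6, 18.0 and 3.6. Their levels are uncertain for this reason, as are those of Cox7c, with 4 such loci, and Uqcrb, with 3.

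More members were split by library set than by genotype label. The sets were drawn from these values so as to differ, and the labels were not, so the comparison is not an even one. Sets A and B did not overlap for 52 of the 80 tested members, 65.0%, against 40.0% of all tested genes. Set B was higher for 23 members and lower for 29 (21.5% and 18.5% of all genes). The sets were drawn from all tested genes, these members included, so the counts are a description. By complex the split members were 21 of 38 in complex I, 4 of 4 in complex II, 6 of 9 in complex III, 9 of 11 in complex IV and 12 of 17 in complex V. Set B stood at least 2-fold above set A on the log2 scale for 9 members, 11.2%, against 10.4% of all tested genes, and at least 2-fold below it for 0 members, against 2.83%. Sdhd and Ndufs5, counted among the split members and these 9, reached 10 normalized counts in set B alone and entered the test through it. That set B lay above set A for both was therefore fixed by the filter.

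These 9 members, picked after their values were seen, are small accessory subunits apart from Sdhd. Ndufa4 had 49.4, 247.1 and 179.2 normalized counts in set A, wild type first, and 743.2, 628.3 and 504.5 in set B, knock-out last. Its genotype means were 473.6 ± 371.9 and 310.3 ± 171.6 normalized counts, a ratio of 0.655. The difference of its mean log2 values, which weighs the low wild-type library 1 more, was -0.02 with a 95% interval from -2.46 to 2.42. Cox7c had 237.5, 392.9 and 237.3 in set A and 1263.9, 1250.2 and 945.4 in set B, a 3.99-fold higher mean. Ndufb3 had 41.4, 210.0 and 181.5 in set A and 441.7, 431.3 and 506.2 in set B. The set A values of Ndufa4 and Ndufb3 were lowest in wild-type library 1. Ndufa1 did the same, with 30.7, 143.9 and 123.4 in set A and 309.9, 249.7 and 358.4 in set B. Atp5j, coupling factor 6 of complex V, had 21.3, 156.6 and 122.2 in set A and 269.6, 243.3 and 367.0 in set B. Atp5md had 210.8, 258.9 and 226.6 in set A and 863.3, 867.1 and 687.6 in set B, with no such low value in wild-type library 1. Ndufb1 had 93.4, 348.5 and 240.9 in set A and 443.4, 400.4 and 562.9 in set B.

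**Figure D3:**
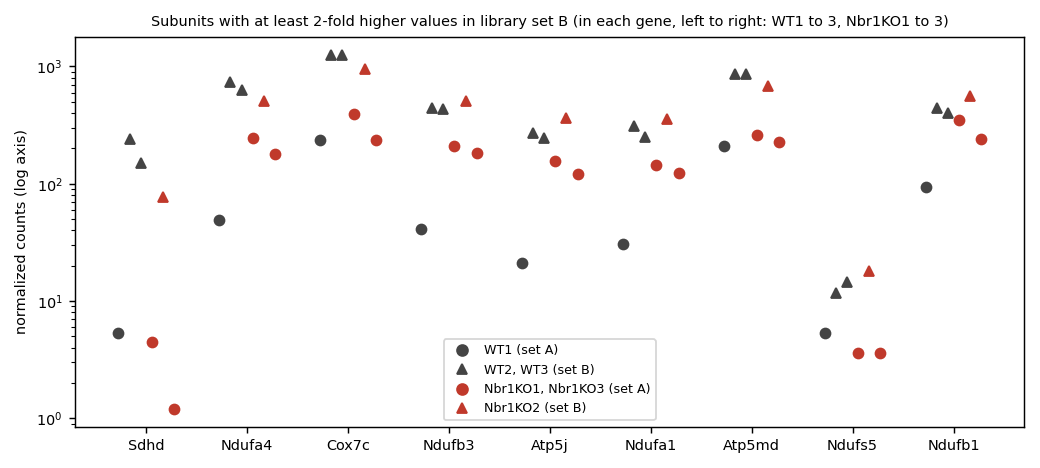
Normalized counts (log axis) in all 6 libraries for the 9 members at least 2-fold higher in library set B, with circles for set A, triangles for set B, grey for the wild-type label and red for the knock-out label. In each gene the 3 triangles lie above the 3 circles; for Sdhd they lie at 77.4 or more against 5.3 or less.

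The members that stood apart in the other direction had smaller differences. Ndufa2 was 1.90-fold higher in set A (mean 1601.9 against 843.2 normalized counts), Uqcr10 1.62-fold (919.8 against 567.9) and Sdhb 1.55-fold (631.5 against 407.4).

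The base composition of the transcript end moved with the set difference. Members with set B above set A had a median GC content of 38.5% in the last 300 bases (20 members with an annotated end), and those with set B below had 51.0% (29 members). Across the 76 tested members with an annotated end, Spearman's rho between GC content and the set difference was -0.48, and across 9929 tested genes it was -0.42. These points share the same 6 libraries, and genes are not independent replicates. Of the 9 members at least 2-fold higher in set B, 7 had an annotated end. Ndufa4 and Cox7c both had 34.7% GC, Sdhd 35.7%, Atp5j 37.0%, Ndufb3 37.3%, Ndufa1 41.7% and Ndufs5 49.7%, the last above the median of 46.0% over the members. What part composition, copies or the culture had in the split was not tested.

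**Figure D4:**
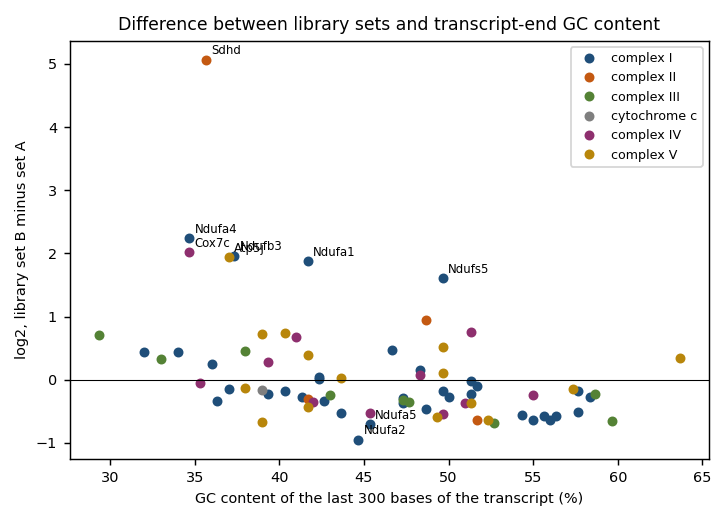
Each point is 1 of 76 tested members, with the GC content of the last 300 transcript bases in percent against the log2 difference of library set B minus set A, coloured by complex. High positive differences lie mostly at low GC content, with Sdhd at 35.7% GC.

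Within the sets the genotype difference can be read from separate libraries, though each set has 1 library in a group and so gives no test. The difference had the same sign in both sets for 53 of 80 members, 66.2%, against 68.4% of all tested genes. Spearman's rho between the sets was 0.34 across the members and 0.53 across all tested genes, as a description. Atp5j, Ndufb3, Ndufa1 and Ndufb1 had log2 differences of 2.64, 2.21, 2.08 and 1.62 within set A and of 0.52, 0.21, 0.36 and 0.42 within set B. The set A values all rest on the low wild-type library 1.

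**Figure D5:**
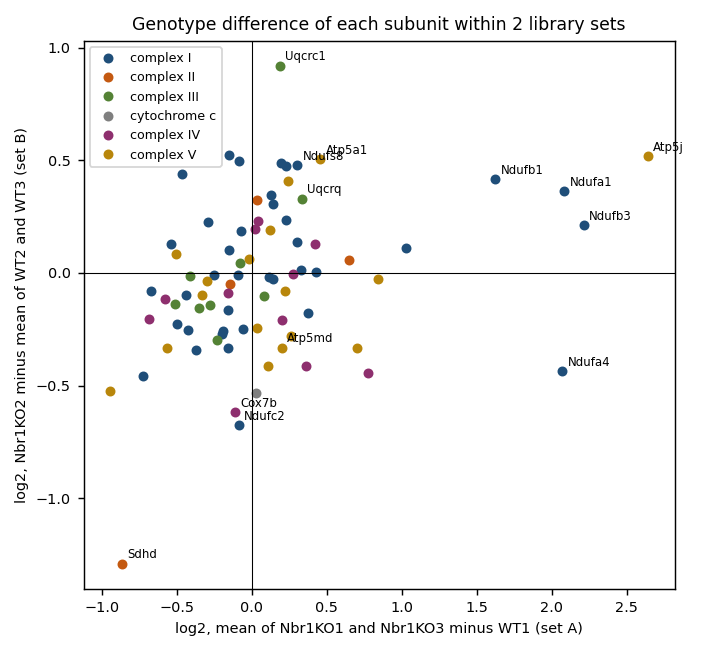
Each point is 1 tested member, with the log2 genotype difference within library set A (horizontal axis, 2 knock-out libraries minus wild-type library 1) against that within set B (vertical axis, knock-out library 2 minus 2 wild-type libraries). Atp5j lies at 2.64 and 0.52. Sdhd lies at -0.87 and -1.29, its set A value resting on 4 reads in wild-type library 1 against 5 and 1 in knock-out libraries 1 and 3.

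The count of 0 depended on wild-type library 1. Without that library 14 members passed, 9 higher and 5 lower (limma, 17.5% of those tested), while 21.1% of all tested genes then passed (12.1% higher, 9.02% lower). When the fit included the library sets, an alternative chosen after seeing the data, 15 members passed, 10 higher and 5 lower (18.8%), against 26.5% of all genes (14.3% higher, 12.2% lower). In both fits the members' share lay below that of all genes. Only 5 members passed in both: Atp5o, Ndufs8, Ndufv1, Uqcrc1 and Uqcrq, each higher in the knock-out label. The set term was drawn from the spread within these same libraries, and fitting it removes that spread. Its adjusted p-values, here and below, may therefore be too small. Leaving out wild-type library 1 removes part of the same spread, so passing both fits is not independent support. Their log2 changes with the set term were 0.32, 0.39, 0.34, 0.55 and 0.33, with limma adjusted p from 0.0309 for Uqcrq to 0.0478 for Ndufv1. Other members past the threshold under the set term included Atp5a1 (log2 change 0.48, limma adjusted p = 0.00539) and Ndufc1 (-0.59, limma adjusted p = 0.00438). Among the 10 higher were also Atp5j, Ndufa1, Ndufb1 and Ndufb3, which rest on the low wild-type library 1. Without it their log2 changes turned to -0.42, -0.58, -0.22 and -0.70. Cox7a2l, among the 5 lower, turned to 0.098, and the other calls under the set term kept their sign. Those that passed without wild-type library 1 included Cox7b (-0.82, limma adjusted p = 0.00961) and Ndufc2 (-0.69, limma adjusted p = 0.00685).

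Genes that build, regulate or surround the chain gave few calls in the main fit. Of the assembly factors, 0 of 17 for complex I, 0 of 4 for complex II, 0 of 8 for complex III, 0 of 22 for complex IV and 0 of 4 for complex V passed limma. Of 18 citric acid cycle enzymes and 10 genes of inner membrane organisation 0 passed as well, where 6.92% of all tested genes did. Lyrm7, a complex III assembly factor, had 0.0, 4.2 and 5.4 against 19.0, 22.3 and 20.2 normalized counts. Only its knock-out libraries reached the minimum of 10 normalized counts, so the filter itself fixed that its groups were apart. Its wild-type libraries 1 to 3 held 0, 5 and 6 reads. Lyrm7 did not pass the main fit (log2 change 2.74, limma adjusted p = 0.0738, and 0.00245 with the set term), and these p-values share that limit. Under the set term 26.5% of all tested genes passed, 14.3% higher and 12.2% lower. With the set term 1 rose and 1 fell among the complex I assembly factors, 0 and 0 among those of complex II, 1 and 2 of complex III, 3 and 3 of complex IV and 0 and 1 of complex V. Under that term 2 citric acid cycle genes rose and 3 fell, 1 inner membrane gene rose and 2 fell, 2 carriers or porins rose and 0 fell, and 4 mitochondrial ribosomal genes rose and 11 fell. Of 75 mitochondrial ribosomal protein genes, Mrpl54 rose (225.5, 244.4 and 252.4 against 392.9, 336.0 and 382.1, limma adjusted p = 0.0417) and Mrpl9 fell (36.0, 36.1 and 30.9 against 10.9, 11.2 and 14.2, limma adjusted p = 0.0169). Of 6 carriers and porins only Vdac3, an outer membrane channel, rose (112.1, 110.0 and 118.9 against 175.6, 164.2 and 195.8, limma adjusted p = 0.0493). The main heart-type ADP/ATP carrier gene Slc25a4 had 1143.4, 1433.5 and 1437.3 against 1837.6, 2055.8 and 1771.6, apart but not past the threshold (log2 change 0.50, limma adjusted p = 0.0891).

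Transcription of many respiratory genes is driven by the nuclear respiratory factors NRF1 and GABP, an ETS-type factor, and by YY1. Of 16 tested regulators, 0 passed, where 6.92% of all tested genes did. With the set term 1 was called higher (Esrra) and 2 lower (Gabpb2 and Ssbp1), where 14.3% of all tested genes were called higher and 12.2% lower. Nrf1 had 62.7, 88.2 and 81.7 against 71.5, 79.1 and 61.7 normalized counts, Gabpa 65.4, 107.5 and 122.6 against 88.7, 106.6 and 102.0, and Yy1 between 405.5 and 461.5 in all 6 libraries. Gabpb2, for a beta subunit of GABP, had 142.8, 225.9 and 293.3 against 118.6, 164.2 and 100.9, with overlap through wild-type library 1 (log2 change -0.75, limma adjusted p = 0.21, and 0.0359 with the set term). Gabpb1, for the other beta subunit, had 85.4, 70.5 and 59.0 against 75.1, 76.5 and 77.1. Twnk, the mitochondrial DNA helicase, and Polg2, the accessory subunit of its polymerase, lay lower in every knock-out library, with log2 changes of -0.88 and -0.72 (limma adjusted p = 0.172 and 0.275). Tfam, which packages and transcribes mitochondrial DNA, had 172.1, 314.9 and 334.1 against 277.0, 313.7 and 258.7. The protein-coding transcripts of mitochondrial DNA were not analysed here. The mitochondrial ribosomal RNAs were lower in every knock-out library, mt-Rnr1 at 17810.9, 12217.5 and 13765.2 against 10494.2, 9699.8 and 11448.3 and mt-Rnr2 at 30050.4, 35233.2 and 36431.8 against 22504.7, 28658.5 and 23302.4. Their log2 changes of -0.45 and -0.45 did not pass (limma adjusted p = 0.167 and 0.127). With the set term in the fit both were called lower (limma adjusted p = 0.00477 and 0.0171), as were 12.2% of all tested genes. Since these RNAs largely lack the long poly(A) tail that the kit primes on, their levels are uncertain.

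Promoters of the members were read from RefSeq (GRCm38.p6, from 250 bases before to 50 after the start, matched by symbol for 68 of 83 members). The palindromic 10-base NRF1 motif, shown in capitals in the first 5 windows below, was found in 5 of 73 member windows (6.85%), against 2.20% of the windows of tested genes and 0.97% of all windows. The ETS letters CCGGAAG, searched on both strands like the others, were in 17 (23.3%, against 18.9% and 8.86%) and the YY1 letters AAGATGGC in 10 (13.7%, against 4.82% and 2.75%). At least 1 of the 3 motifs, which may occur together, was in 29 windows (39.7%, against 24.3% of tested genes' windows and 11.9% of all). Among members with set B above set A, 0 of 22 windows held the NRF1 letters, 6 the ETS letters and 2 the YY1 letters, and among those with set B below it was 3, 7 and 4 of 25. A match is a run of letters and not a measured site.

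The 5 NRF1 matches, and the ETS and YY1 matches of Sdhd and Atp5j, which varied most among libraries in complexes II and V, are shown as 30 bases around each match, on the strand of the gene, 5′ to 3′, with the motif in capitals. The Uqcrc1 match begins 31 bases after the start, and the others lie upstream. These windows are from chr9:108936668-108936697 (+) for Uqcrc1, chr5:115349101-115349130 (-) for Cox6a1, chr5:108434430-108434459 (-) for Atp5k, chr17:56717692-56717721 (+) for Ndufa11, chr15:102671070-102671099 (-) for Atp5g2, chr9:50603878-50603907 (-) for Sdhd, and chr16:84835020-84835049 (-) and chr16:84835046-84835075 (-) for the ETS and YY1 matches of Atp5j, all in GRCm38.p6 and not in the build GRCm39 of the deposited table.
Uqcrc1, NRF1: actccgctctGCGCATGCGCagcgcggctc
Cox6a1, NRF1: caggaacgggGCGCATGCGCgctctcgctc
Atp5k, NRF1: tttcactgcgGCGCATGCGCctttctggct
Ndufa11, NRF1: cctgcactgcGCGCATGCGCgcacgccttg
Atp5g2, NRF1: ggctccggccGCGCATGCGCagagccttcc
Sdhd, ETS: accgtctcctgcCTTCCGGttcacgcttca
Atp5j, ETS: tagctgagggacCCGGAAGcacttaccctc
Atp5j, YY1: aaagtgtaggaAAGATGGCggagtcttagc
The Sdhd match is the ETS motif read on the opposite strand. Levels of the 5 genes with an NRF1 match ranged from 9.3 normalized counts for Atp5g2 to 1595.6 for Atp5k, both in wild-type library 1, and none of the 5 passed the genotype test.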

How the data were processed

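The deposited values are a normalized count signal, 1 column per library, made by the authors by dividing each gene's count by a library factor. The submitters' processing notes name DESeq2 and GRCm39. The aligner, annotation and use of strand are not given in the sources used here, nor is whether the molecular identifiers that the protocol mentions were collapsed. Per the labels' protocols, 200 ng of RNA went into QuantSeq 3′ forward libraries, read as single ends of 75 bases. In every library 100% of values were whole multiples of 1 read (tolerance 0.01), so reads were recovered. On them edgeR 4.0.16 called 766 genes and DESeq2 1.42.0 951.

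The whole table was fitted with limma 3.58.1 (R 4.3.3) as the main test, which called 729 of 10540 genes. The limma, edgeR and DESeq2 fits were run on simulated counts with large changes, a small even spread and no library sets. That run does not cover the spread of the real libraries. BLAST+ 2.17.0 found near copies. Members, lists and tests were chosen with earlier results of these data known. Genes named are, by rule, those past the threshold, the 2 smallest p and the extremes of level per complex, and paralogue families. Others were picked after their values were seen. Wild-type libraries 2 and 3 differed by a chi-square of 1.48 per degree of freedom and knock-out libraries 1 and 3 by 1.53, other pairs by 7.37 to 20.1, and none were merged. All SDs, SEs and p-values count every library as independent. If the close pairs are not independent, SEs and p-values may be too small. Intervals for reads cover counting error only. Of the members, 1 is counted in the totals but not reported here by itself.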

Additional observations from a re-analysis of the deposited data

How the results depend on the processing

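Counts of called members stayed at 0 in both directions under other pseudocounts (0.5 and 5), without the filter, with a minimum mean of 50, after TMM or quantile scaling, without a variance trend, with a 1.5-fold minimum added, under edgeR and DESeq2, with the replicate block and with the GC trend removed, the last chosen after seeing the data. The library set term, also chosen afterwards, gave 10 higher and 5 lower. Leaving out 1 library gave between 0 and 9 higher and between 0 and 5 lower, and only the fit without wild-type library 1 gave more than 0. Same-numbered libraries had deviation correlations of 0.45, 0.70 and -0.62, so the numbers were not taken as pairing, and the replicate block called 0 members. The members' median log2 change lay between -0.11 with the GC trend removed and 0.025 within set A. The fit with the GC trend removed held only the 76 members with an annotated end. For named members the sign of the log2 change turned as follows, and the cause was not tested. With TMM factors the turned values were 0.012 for Sdhc. With quantile normalization the turned values were 0.015 for Sdhc. With edgeR the turned values were -0.035 for Atp5k and -0.019 for Ndufb3. With DESeq2 the turned values were -0.059 for Atp5k, -0.007 for Cox6c, -0.028 for Ndufb3, -0.001 for Sdha and -0.024 for Uqcr10. With the GC trend removed the turned values were -0.12 for Atp5k, -0.059 for Cox6c, -0.015 for Ndufa11, 0.016 for Ndufa4, -0.049 for Sdha and -0.11 for Uqcr10. With the set term the turned values were 0.18 for Atp5g3, -0.21 for Atp5k, -0.12 for Cox6c, 0.17 for Cox8a, -0.034 for Ndufa11, 0.82 for Ndufa4, -0.098 for Sdha, 0.35 for Sdhc and -0.21 for Uqcr10. With set A alone the turned values were 0.26 for Atp5g2, 0.70 for Atp5g3, -0.51 for Atp5k, 0.20 for Atp5md, 0.20 for Cox6b1, -0.16 for Cox6c, 0.36 for Cox7c, 0.77 for Cox8a, 0.028 for Cycs, -0.29 for Ndufa11, -0.15 for Ndufa2, 2.07 for Ndufa4, -0.15 for Sdha, 0.65 for Sdhc and -0.41 for Uqcr10. With set B alone the turned values were -0.026 for Atp5b, -0.090 for Cox6c, 0.44 for Ndufs5, -0.051 for Sdha, 0.056 for Sdhc and -0.015 for Uqcr10. Leaving out 1 library turned further signs, with log2 changes from -0.33 to 0.37 for Atp5b, -0.33 to 0.006 for Atp5g2, -0.51 to 0.14 for Atp5g3, -0.42 to 1.38 for Atp5j, -0.17 to 0.35 for Atp5k, -0.12 to 0.031 for Cox6b1, -0.079 to 0.15 for Cox6c, -0.31 to 0.16 for Cox7a2, -0.45 to 0.098 for Cox7a2l, -0.58 to 0.18 for Cox8a, -0.25 to 0.046 for Cyc1, -0.31 to 0.007 for Cycs, -0.58 to 1.06 for Ndufa1, -0.061 to 0.44 for Ndufa11, -1.27 to 0.67 for Ndufa4, -0.22 to 0.90 for Ndufb1, -0.70 to 0.99 for Ndufb3, -0.43 to 0.18 for Ndufs5-ps, -0.057 to 0.14 for Sdha, -0.45 to 0.25 for Sdhc, -0.14 to 0.35 for Uqcr10 and -0.28 to 0.048 for Uqcrh.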
